A study of Mus musculus with 4 samples.

Results

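The 7 globin genes *Hba-x*, *Hba-a1*, *Hba-a2*, *Hbb-y*, *Hbb-bh1*, *Hbb-bs* and *Hbb-bt* were taken by symbol from the 32288 features of a single-cell RNA-seq experiment on E14.5 mouse hindlimbs, and each symbol matched 1 feature. The experiment asks how limb cells respond when p21, which arrests the cell cycle, is overexpressed in a mosaic of cartilage cells. All embryos were Gli1CreER/+; R26LSL-tdT/+; TigreTRE-p21/+, and the Pan-Cart-p21 MOE embryos also carried Col2a1-rtTA, which drives p21 in cartilage under doxycycline, whereas controls lacked it. Every dam received doxycycline (1 mg/ml in the water) from E12.5 and tamoxifen (120 µg/g) at E13.5, so that descendants of Gli1-expressing cells were labelled with tdTomato (tdT) in both genotypes. Cells were treated with red blood cell lysis buffer and sorted into tdT+ and tdT- fractions in 2 collections, which gave 4 droplet libraries (2 tdT+ and 2 tdT-), each holding both genotypes, which the study's methods distinguish by opposite sex. Animals within a pool are not told apart, so p-values measure only the spread between these libraries, which may be technical.

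Haemoglobin carries oxygen in red blood cells as a tetramer of alpha-like and beta-like chains. In the mouse the first, primitive red cells arise in the yolk sac. They use the embryonic chains (*Hba-x*, the zeta-like alpha chain, with *Hbb-y* and *Hbb-bh1*), though not to the exclusion of adult chains. Definitive red cells from the foetal liver use the adult chains (*Hba-a1* and *Hba-a2* with *Hbb-bs* and *Hbb-bt*). Embryonic and adult thus name groups of genes here. A mix of both in a barcode or library does not tell these lineages apart, and the lineage of the cells was not tested. Limb cartilage and connective tissue are not known as sites of red cell formation, and globin RNA in limb preparations is usually attributed to blood.

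In GRCm38 the 3 alpha-like genes lie on the plus strand of chromosome 11, from *Hba-x* (chr11:32276400-32278116) through *Hba-a1* (chr11:32283511-32284465) to *Hba-a2* (chr11:32296489-32297298). The 4 beta-like genes lie on the minus strand of chromosome 7, in the order *Hbb-y* (chr7:103851749-103853216), *Hbb-bh1* (chr7:103841637-103843164), *Hbb-bs* (chr7:103826534-103828096) and *Hbb-bt* (chr7:103812524-103813996), and each of the 7 genes has 3 exons in its longest coding transcript. The 150 bases before the RefSeq start site (build GRCm38.p6) are shown for 1 embryonic and 1 adult gene of each cluster. All of the genes shown were higher in tdT- than in tdT+ libraries, though their upstream sequences are unlike. A link between these sequences and the counts was not tested. Capitals mark matches on either strand to 4 short motifs, the GATA site (GATAA) and the CACCC box of erythroid genes, the general CCAAT box and a TATA-like box (ATAAA). The windows are chr11:32276450-32276599 (plus strand), chr11:32283522-32283671 (plus strand), chr7:103853208-103853357 (minus strand) and chr7:103827929-103828078 (minus strand), in that order.
*Hba-x*: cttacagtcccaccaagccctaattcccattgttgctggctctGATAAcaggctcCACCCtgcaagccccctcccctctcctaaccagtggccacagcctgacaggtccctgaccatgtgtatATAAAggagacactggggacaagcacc
*Hba-a1*: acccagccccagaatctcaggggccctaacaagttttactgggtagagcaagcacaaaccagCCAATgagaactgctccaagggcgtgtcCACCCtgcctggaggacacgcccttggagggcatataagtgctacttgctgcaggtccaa
*Hbb-y*: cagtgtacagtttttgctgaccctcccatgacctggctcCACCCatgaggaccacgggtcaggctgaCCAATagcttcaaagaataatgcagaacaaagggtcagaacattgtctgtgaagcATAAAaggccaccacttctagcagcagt
*Hbb-bs*: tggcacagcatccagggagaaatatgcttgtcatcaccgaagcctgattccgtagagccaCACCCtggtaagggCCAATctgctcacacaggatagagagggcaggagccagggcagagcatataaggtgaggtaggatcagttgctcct
Over the 6 members with an entry, *Hbb-bh1* having none in the table used here, CACCC was found in 6 and in 37.4% of all 32851 promoter windows of the same length. CCAAT was found in 5 of the 6 (24.5% of all windows), ATAAA in 3 (24.1%) and GATAA in 1, *Hba-x* (13.3%). Only these exact letters were searched. A window without ATAAA can still hold a TATA-like box with other letters, as the printed windows of *Hba-a1* and *Hbb-bs* do. The count for ATAAA is therefore not a count of TATA-like boxes. The windows of *Hba-a1* and *Hba-a2* were 96% identical and those of *Hbb-bs* and *Hbb-bt* 72.7% identical, whereas *Hba-x* and *Hbb-y* each shared 44.7% to 51.3% with any other member.

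The paralogs also share transcript sequence, which limits how their counts can be split. Of the 90-base windows in the last 400 bases of the *Hba-a1* coding transcripts, 71.1% occurred exactly in *Hba-a2*, and of those of *Hbb-bs* 59.0% occurred in *Hbb-bt*. No such window of *Hba-x*, *Hbb-y* or *Hbb-bh1* occurred in another member. The division between the paralogs of a pair is therefore uncertain, and reads that fit both may be missing from the adult genes. The size of such a loss was not tested, and the mice were of an outbred background while the gene names follow the reference strain.

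The libraries held 2541 to 6455 barcodes of at least 500 UMIs (unique molecular identifiers, each counting 1 captured RNA molecule) and 11945062 to 39435830 UMIs. Barcodes with at least 500 and under 3000 UMIs (called shallow) numbered 3428 in tdT+ collection 1, 1977 in tdT- collection 1, 5291 in tdT+ collection 2 and 4489 in tdT- collection 2, and barcodes with 3000 or more (deep) numbered 644, 564, 1164 and 1398. The median shallow barcode held 609 to 1027 UMIs and the median deep barcode 12149.5 to 25178.5. Any pair of libraries shared 3 to 12 barcode sequences, and 1 barcode had a globin UMI in both libraries of its pair. In 0 deep barcodes of the 4 libraries did red cell markers (at least 3 of a list of 8 with 2 or more UMIs each, *Ahsp* not analysed here) outnumber those of other types. Intervals given with counts are exact 95% intervals that cover counting error only.

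Globin UMIs were found almost entirely in the tdT- fraction. Over all barcodes, tdT+ collection 1 held 6 globin UMIs, tdT- collection 1 held 2497, tdT+ collection 2 held 11 and tdT- collection 2 held 2669. Both tdT- libraries thus lay far above both tdT+ libraries, and in each collection both fractions were sorted from embryos of the same sex and genotype. As UMIs per 1000000 UMIs (counts per 1000000, CPM), the level was 209 against 0.289 in collection 1, a ratio of 724 (332 to 1974), and 67.7 against 0.345 in collection 2, a ratio of 196 (109 to 393). Pooled over collections, the ratio was 311 (194 to 535). The 2 tdT- libraries also differed from each other, with the higher level in collection 1. Fewer red cells and less globin RNA per cell cannot be told apart in these counts.

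**Figure D1:**
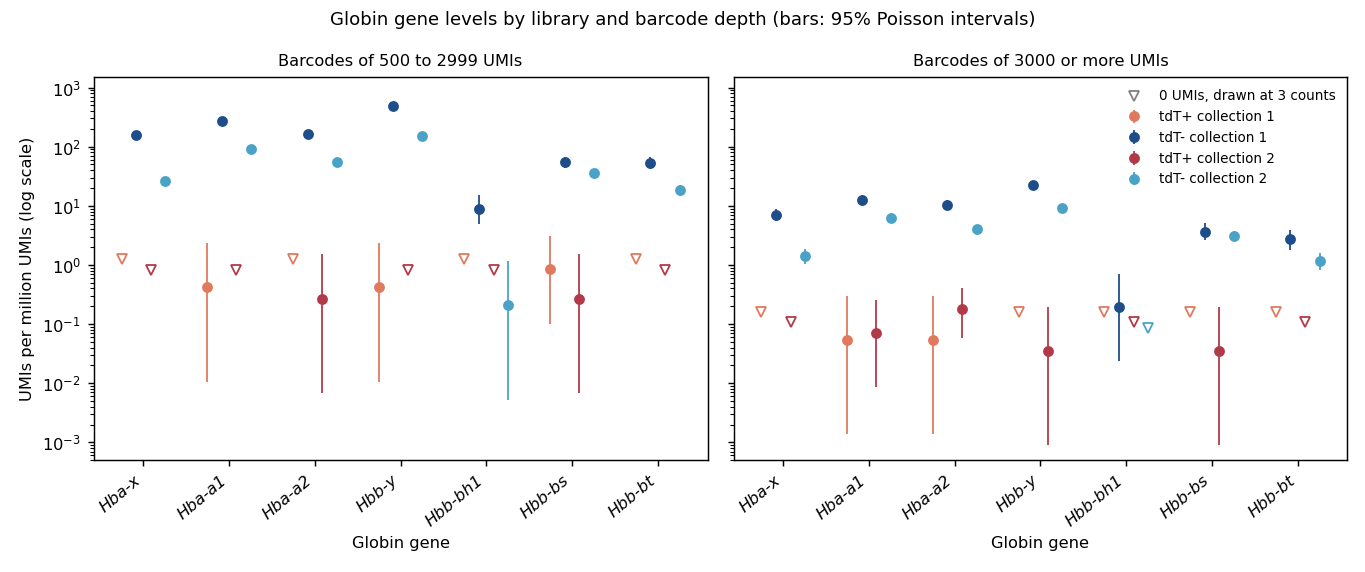
Level of each globin gene (CPM, log scale) in the 4 libraries, in shallow barcodes (left) and deep barcodes (right). Bars are 95% Poisson intervals, and open triangles mark genes with 0 UMIs, drawn at the level of 3 counts. The tdT- points lie above the tdT+ points for every gene other than *Hbb-bh1*, whose single UMI in tdT- collection 2 lies below the triangles, and the tdT- points are lower in deep than in shallow barcodes.

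Among the alpha-like genes, embryonic *Hba-x* was at 156 CPM in the shallow barcodes of tdT- collection 1 and at 26.1 in those of tdT- collection 2. Its level was 7.13 and 1.41 in the deep barcodes of the same libraries, and it had 0 UMIs in both tdT+ libraries. Against a floor of 3 counts over the tdT+ group, its level over all barcodes was at least 168-fold higher in tdT- cells. Adult *Hba-a1*, the main source of alpha-globin UMIs here, was at 270 and 92.2 CPM in shallow tdT- barcodes and at 12.7 and 6.12 in deep ones, with 2 UMIs in each tdT+ library. Its paralog *Hba-a2* was at 166 and 54.4 in shallow and at 10.4 and 3.98 in deep tdT- barcodes, with 1 UMI in tdT+ collection 1 and 6 in tdT+ collection 2. For *Hba-a1* the tdT- level over all barcodes was 309 times the tdT+ level (120 to 1137) and for *Hba-a2* 112 times (54.1 to 279).

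Embryonic *Hbb-y* was the most abundant member in each tdT- library and barcode class. It was at 493 and 149 CPM in shallow tdT- barcodes and at 22.6 and 9.23 in deep ones, with 1 UMI in each tdT+ library, a ratio of 1045 (289 to 8635). The other embryonic beta-like gene, *Hbb-bh1*, was close to the limit of detection, with 16 UMIs in tdT- collection 1, 1 in tdT- collection 2 and 0 in both tdT+ libraries, at least 5.81-fold higher in tdT- cells over the group but at 1 UMI against 0 in collection 2. Adult *Hbb-bs* was at 55.0 and 36.4 CPM in shallow and at 3.66 and 3.12 in deep tdT- barcodes, with 2 UMIs in each tdT+ library, a ratio of 104 (40.3 to 384). Adult *Hbb-bt* was at 53.0 and 18.4 in shallow and at 2.70 and 1.15 in deep tdT- barcodes and had 0 UMIs in tdT+ cells, at least 81.6-fold higher. The order of the members in the tdT- libraries was the same in both collections from *Hbb-y* over *Hba-a1* to *Hba-a2*, whereas *Hba-x* stood above *Hbb-bs* in collection 1 and below it in collection 2.

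Across all genes, edgeR's quasi-likelihood test on summed counts set these differences against the spread between libraries, 2 tdT- against 2 tdT+. In shallow barcodes 6 of the 7 members passed the filter on low counts and all 6 were called higher in tdT- cells at an adjusted p under 0.05, where 64 of 11509 genes were called in either direction (0.556%) and 41 higher (0.356%). In deep barcodes 6 passed the filter and 5 were called higher, where 255 of 17792 genes were called (1.43%) and 158 higher (0.888%). The members passed the filter through their tdT- counts, so that the counts of members called are a description. In shallow barcodes the log2 difference of *Hbb-y* was 10.63 ± 0.94 (SE, adjusted p = 0.000732 by edgeR) and that of *Hba-a1* 9.79 ± 0.86 (adjusted p = 0.000732 by edgeR). SE here and below is an approximation, the log2 difference divided by the square root of the F statistic of its edgeR test. It is not an estimate made by edgeR and need not match the p-values. Where a group holds 0 or 1 UMI per library it may understate counting error. The 5 members with the largest log2 difference of all 11509 genes were *Hba-x*, *Hbb-y*, *Hba-a1*, *Hbb-bt* and *Hba-a2*, in this order, and *Hbb-bs* ranked 10 at 6.45 ± 0.46 (adjusted p = 0.000207). In deep barcodes *Hbb-y* differed by 9.20 ± 0.86 and *Hba-a1* by 7.08 ± 0.62 (adjusted p = 0.0166 for each by edgeR). *Hba-x* did not pass in deep barcodes (adjusted p = 0.0682), and with collection as a replicate block it did (adjusted p = 0.000657 by edgeR), with 6 of 6 members and 895 of all genes called. The fitted differences of *Hba-x* and *Hbb-bt* are set against 0 counts and depend on the prior count. In shallow barcodes those of *Hbb-y*, *Hba-a1* and *Hba-a2* rest on 0 or 1 UMI in each tdT+ library. Their size and rank depend on the prior count as well.

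Other genes of red cells were compared between the fractions in the same fits. Of a list of 60 genes for haem synthesis, iron handling, the red cell membrane, erythroid regulators, cytosolic enzymes and late maturation, 48 were tested in deep barcodes and 0 were called between the fractions by edgeR, with 11 at an unadjusted p under 0.05 (14.9% of all genes were) and 0 called by DESeq2. In shallow barcodes 34 were tested and 0 were called, with 3 at an unadjusted p under 0.05 (8.37% of all genes were) and 0 called by DESeq2. With 1.43% and 0.556% of all genes called, counts of 0 among so few genes are near the background. The median log2 difference of the list was 0.08 in deep and 0.04 in shallow barcodes, beside 0.01 and -0.01 over all genes. *Alas2*, the erythroid enzyme that starts haem synthesis, was at 4.09 and 4.11 CPM in the tdT+ libraries and at 4.10 and 4.36 in the tdT- libraries. *Car2*, carbonic anhydrase of red cells and other cell types, was at 0.867 and 0.565 in the tdT+ and at 7.62 and 1.32 in the tdT- libraries, where the higher value again fell in collection 1.

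Markers of other blood cells also differed between the fractions. The 8 macrophage markers summed to 2.43 to 5.11 CPM in the shallow and deep barcodes of the tdT+ libraries, with 2 or 3 markers at 0, and to 30.4 to 126 in those of the tdT- libraries, with none at 0. Of the 8 tested in deep tdT- barcodes, *Tyrobp*, *Fcer1g* and *Ptprc* were called higher. Of the 4 tested in shallow tdT- barcodes, *Tyrobp*, *Fcer1g* and *C1qb* were called higher. Over all genes tested, 0.888% were called higher in deep and 0.356% in shallow tdT- barcodes. The 8 megakaryocyte or platelet markers summed to 2.10 to 6.25 in tdT+ and 6.64 to 19.2 in tdT- libraries. Only 1 of them was tested in shallow barcodes, *Pf4*, a platelet chemokine that macrophages also express, and it was called higher in tdT- cells. Of the 3 tested in deep barcodes, 0 were called. The 7 red cell markers analysed summed to 20.5 to 26.5 in tdT+ and 24.3 to 41.5 in tdT- libraries, with 2 to 5 of them at 0 in each, and most of these UMIs came from *Bpgm*. Among markers of limb cells, 4 of 8 for chondrocytes, 3 of 8 for endothelium and 2 of 8 for muscle were called higher in deep tdT- barcodes. For connective tissue 3 of 8 were called lower there. Over all genes tested in deep barcodes, 1.43% were called in either direction. The part of any of these cells in the globin difference was not tested.

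Shallow barcodes held a larger share of globin than deep ones. The 7 genes took 0.120% of the UMIs of shallow and 0.00594% of those of deep barcodes in tdT- collection 1, and 0.0377% and 0.00250% in tdT- collection 2. In the tdT+ libraries the shares were 0.000168% and 1.09e-05% in collection 1 and 5.40e-05% and 3.20e-05% in collection 2, from 4 against 2 and 2 against 9 UMIs. The share was higher in the shallow class in 4 of 4 libraries, and the exact sign-flip permutation test gave p = 0.13, the smallest that 4 libraries allow. The ratio of CPM was 20.2 (18.4 to 22.2) in tdT- collection 1 and 15.1 (13.9 to 16.4) in tdT- collection 2. By edgeR, with library as a term, 6 of 6 members tested were called higher in shallow barcodes, where 8885 of 15562 genes were called (57.1%) and 4321 higher (27.8%), so that the call itself is common between these classes. The log2 differences of the members ran from 4.22 ± 0.23 (*Hbb-bs*) to 4.84 ± 0.20 (*Hba-x*) and ranked 10 to 29 of 15562, beside a median of -0.03 over all genes. Of the 42 genes of the red cell list tested, 16 were called higher and 7 lower in shallow barcodes, with a median of 0.19. *Car2* differed by 2.16 (adjusted p = 0.00219 by edgeR), and *Alas2* fell by 0.96 (adjusted p = 0.038).

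Counted per barcode in place of per UMI, the deep class held more globin, by far less than its excess of total UMIs. A shallow barcode of tdT- collection 1 held 0.951 globin UMIs on average and a deep one 1.09, a ratio of 1.15 (1.05 to 1.26), while the deep barcodes held 23.3 times as many UMIs in all. In tdT- collection 2 the means were 0.401 and 0.620, a ratio of 1.54 (1.42 to 1.68), again with a 23.3-fold difference in total UMIs. Across 6 bins of depth in tdT- collection 2, the globin UMIs per barcode were 0.193 in the lowest bin (500 to 699 UMIs), 0.897 in the bin from 1500 to under 3000, and 0.595 in barcodes of 10000 or more. In tdT- collection 1 the same bins held 0.321, 5.09 and 0.896, with the peak set by a small number of globin-rich barcodes. Without barcodes of at least 1% globin, the 3 bins held 0.209, 0.677 and 0.896 in collection 1 and 0.193, 0.396 and 0.595 in collection 2. The deep over shallow ratio per barcode was then 2.74 (2.40 to 3.14) and 1.70 (1.57 to 1.85). This cut is made on globin itself and removes shallow barcodes at fewer globin UMIs than deep ones. In tdT- collection 1 it left 492 of 1880 shallow and 390 of 617 deep globin UMIs. Part of the change in these values is therefore built in.

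**Figure D2:**
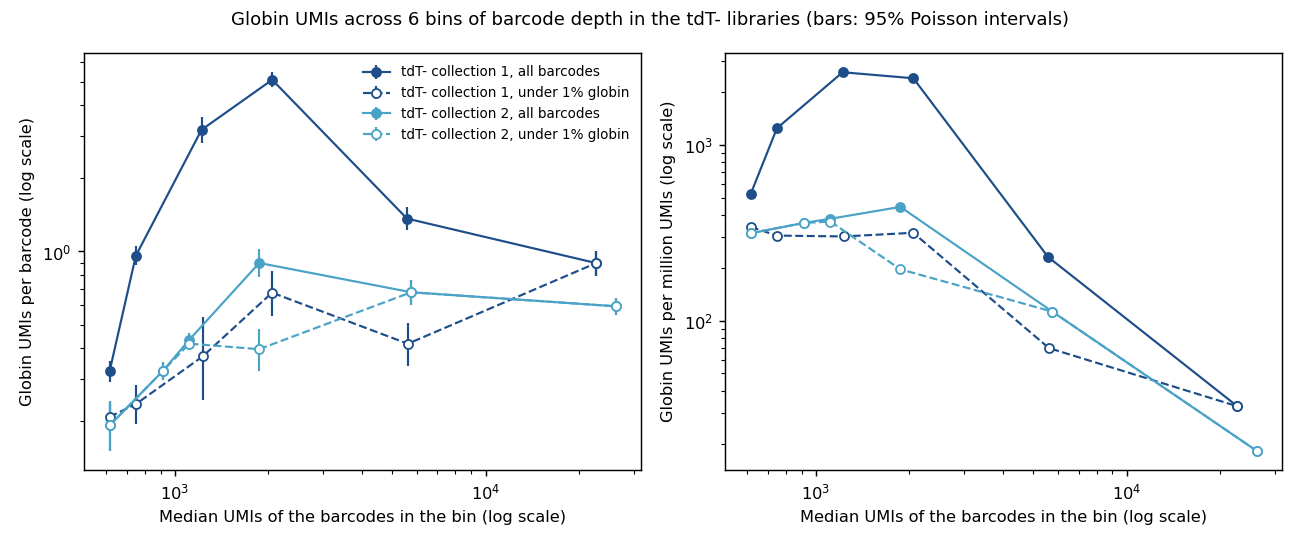
Globin UMIs per barcode (left) and in CPM (right) against the median UMIs of the barcodes in each of 6 depth bins, both axes on log scales, in the 2 tdT- libraries. Solid lines show all barcodes and dashed lines those with under 1% globin UMIs, with 95% Poisson intervals on the left. The 1% cut removes shallow barcodes at fewer globin UMIs than deep ones. Across the bins the dashed lines stay between 0.193 and 0.896 UMIs per barcode, and the level in CPM is lowest in the deepest bin of each line.

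A globin UMI was seen in 20.6% of shallow (18.8% to 22.4%) and 36.2% of deep barcodes (32.2% to 40.3%) in tdT- collection 1, and in 28.0% (26.7% to 29.4%) and 34.3% (31.8% to 36.8%) in tdT- collection 2. In the tdT+ libraries these shares were 0.0378% to 0.773%. Thinned to 500 UMIs per barcode, the order turned, with 15.8% of shallow and 4.26% of deep barcodes in tdT- collection 1 and 15.4% and 1.93% in tdT- collection 2. Among deep tdT- barcodes, those with chondrocyte markers had a globin UMI in 35.3% of 425 in collection 1 (median 10963 UMIs). In collection 2 the share was 33.2% of 940 barcodes (median 18514 UMIs). Those with connective tissue markers had a globin UMI in 33.3% of 87 (median 20355) and 36.5% of 315 (median 21006). In the tdT+ libraries the share among deep chondrocyte-marker barcodes was 0.344% of 291 (median 24401 UMIs) and 0.687% of 582 (median 20529). For connective tissue markers it was 0.357% of 280 and 0.840% of 476 in the tdT+ libraries. The same marker class thus had a globin UMI far more often in the tdT- fraction. Whether these UMIs reflect expression in the marked cells was not tested. Chondrocyte-marker barcodes held 0.708 (0.630 to 0.793) and 0.603 (0.555 to 0.655) globin UMIs each in the 2 collections, and connective-tissue-marker barcodes 2.49 (2.17 to 2.85) and 0.571 (0.491 to 0.661). In collection 1, 2 connective-tissue-marker barcodes of at least 1% globin held 179 of the 217 UMIs, and without them, an alternative chosen after seeing the data, the value was 0.447 (0.316 to 0.614). Macrophage markers were carried by 2 deep barcodes in each tdT- library, and endothelial markers by 3 and 9, too few to set apart.

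Globin UMIs were unevenly spread over the barcodes of the tdT- libraries. Among deep barcodes under 1% globin, the variance of the globin UMIs over their mean was 2.81 in collection 1 and 3.03 in collection 2, and 64.2% and 65.7% of these barcodes had none. These barcodes differ widely in total UMIs, and 40 and 132 of all deep barcodes carried genes of both sexes, so that a spread beyond that of a single mean is not by itself a result. In shallow barcodes under 1% the ratio was 2.65 in collection 1 and 1.28 in collection 2. In the tdT+ libraries no barcode held more than 1 globin UMI.

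A small set of barcodes in tdT- collection 1 carried most of its globin. Of 2541 barcodes, 38 had at least 1% of their UMIs from the 7 genes, and they held 1615 of the 2497 globin UMIs (64.7%) of that library. These barcodes held 530 to 3466 UMIs in all (median 1410.5) and 8 to 226 globin UMIs, 3 of them were deep, and the highest share was 27.3% (226 of 829 UMIs). In tdT- collection 2 only 3 barcodes reached 1%, with 168 of 2669 globin UMIs (6.29%), and in the tdT+ libraries none did. The 1% threshold was set after the counts were seen, since 1 barcode in all reached 20% and a test across libraries on such barcodes could not be fitted. Without the 38 and 3 barcodes, 6 of 6 members tested were called higher in tdT- cells by edgeR in shallow barcodes, as with them, and 6 of 6 in deep barcodes, where *Hba-x* gained the call (adjusted p = 0.0362). In all, 129 and 257 genes were then called. The shallow over deep ratio of CPM was then 8.63 (7.54 to 9.88) in tdT- collection 1 and 13.7 (12.6 to 14.9) in tdT- collection 2. Since the cut removes shallow barcodes at fewer globin UMIs than deep ones, part of the change from the ratio over all barcodes is built in.

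In sum, other red cell genes were more abundant in the 38 globin-rich barcodes than in the remaining shallow barcodes of the same library. No replicate library was there to test this. Of the 32 genes of the red cell list with a UMI in the 38 barcodes, 14 had a 95% counting interval of the ratio above 1. The same held for 1305 of the 7982 non-globin genes with a UMI in them (16.3%). The median ratio was 4.50 for the 32 genes and 1.69 for the 7982. Genes without a UMI in the 38 barcodes were left out of both sets, which raises both medians. Among those left out were *Urod* (0 against 41 UMIs in the others) and *Tfrc* (0 against 27), so these counts and medians are a description. Summed over the 59 genes of the list in the features, the ratio was 1.48 (1.35 to 1.63). *Car2* had 43 UMIs in the 38 barcodes and 11 in the others, a ratio of 105 (53.5 to 227). *Bpgm*, which makes the metabolite that lowers the oxygen affinity of haemoglobin, was at 338 CPM against 27.0 (95% interval of the ratio 6.85 to 22.0), and *Alas2* had 5 against 2 UMIs, at 89.0 against 1.32 CPM. *Bnip3l*, needed to clear mitochondria from maturing red cells, was 5.45-fold higher (3.80 to 7.65), *Epb41*, of the membrane skeleton, 5.74-fold (3.35 to 9.38) and *Fech*, the last enzyme of haem synthesis, 7.56-fold (2.76 to 18.0). *Bcl11a*, a regulator of globin switching, was 7.71-fold higher (3.04 to 17.4), from 8 UMIs. The 8 connective tissue markers were 4.42-fold higher in sum (3.96 to 4.92), with 4 of them above 1 (*Col1a1* at 6.59-fold, 5.58 to 7.74, and *Col1a2*, *Col3a1* and *Prrx1*), *Postn* below 1 (0 against 110 UMIs) and *Lum*, *Dcn* and *Twist1* with intervals that include 1. In the 3 globin-rich barcodes of tdT- collection 2 the same sum was 0.533 (0.173 to 1.24) and that of the red cell list 2.42 (1.82 to 3.16). In tdT- collection 1 chondrocyte markers summed to 0.774 times the level in the others (0.675 to 0.883).

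Embryonic and adult globins had similar UMI counts. Reads that fit both adult paralogs of a pair may be missing, which would lower the adult counts only. The shares and ratios below are not corrected for this, and its size was not tested. The embryonic genes gave 1341 of 2497 globin UMIs in tdT- collection 1 (53.7%, 51.7% to 55.7%) and 1208 of 2669 in tdT- collection 2 (45.3%, 43.4% to 47.2%), an embryonic to adult ratio of 1.16 and 0.827. The tdT+ libraries had 1 embryonic UMI of 6 and 1 of 11, and both intervals (0.421% to 64.1% and 0.230% to 41.3%) are wide. The difference, tdT+ minus tdT-, was -37.0 percentage points in collection 1 and -36.2 in collection 2, and the exact permutation test of 2 against 2 gave p = 0.33, the smallest it allows. At this depth the tdT+ mix cannot be resolved.

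The 2 chain families stood at different points. Of alpha-like UMIs, embryonic *Hba-x* made up 25.7% (23.3% to 28.2%) in tdT- collection 1 and 14.2% (12.3% to 16.3%) in tdT- collection 2. Of beta-like UMIs, the embryonic pair made up 81.3% (79.1% to 83.4%) and 71.6% (69.2% to 73.9%). Adult genes thus predominated among alpha-like and embryonic genes among beta-like UMIs in both libraries, and collection 1 was the more embryonic in both families by more than counting error. A loss of reads shared by *Hbb-bs* and *Hbb-bt* would raise the embryonic share of beta-like UMIs, and its size was not tested. The alpha-like family as a whole gave 49.6% and 45.9% of globin UMIs. *Hbb-bs* was 4.97% of globin UMIs in collection 1 and 10.6% in collection 2, *Hba-x* 12.7% and 6.52%, and *Hbb-bh1* 0.641% and 0.0375%, whereas *Hbb-y* (40.3% and 38.7%), *Hba-a1* (22.2% and 24.5%), *Hba-a2* (14.7% and 14.9%) and *Hbb-bt* (4.45% and 4.80%) had intervals that overlapped between the collections. With 1 tdT- library per collection, litter, embryo and library cannot be told apart.

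**Figure D3:**
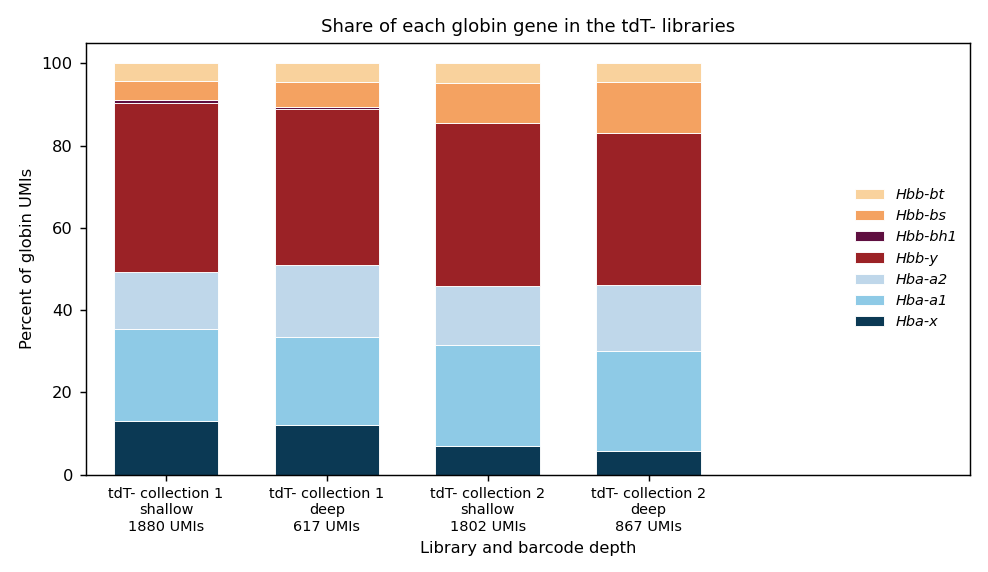
Share of each of the 7 genes in the globin UMIs (percent) of shallow and deep barcodes of the 2 tdT- libraries, with the number of globin UMIs under each bar. *Hbb-y* is the largest segment of each bar, the *Hba-x* segment is larger in collection 1 and the *Hbb-bs* segment larger in collection 2, while shallow and deep bars of a library are close.

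Between depth classes the mix changed little. The embryonic share was 54.8% in shallow (52.5% to 57.1%) and 50.4% in deep barcodes (46.4% to 54.4%) of tdT- collection 1, and 46.6% (44.2% to 48.9%) and 42.6% (39.2% to 45.9%) in tdT- collection 2. The intervals of the depth classes overlapped in both libraries. Over the 4 libraries the mean difference was 5.57 percentage points (exact sign-flip permutation test, p = 0.625), which rests on tdT+ libraries with 2 to 9 globin UMIs a class, and over the 2 tdT- libraries it was 4.19 (4.38 and 4.0). Without the globin-rich barcodes the 2 differences were 2.74 and 2.79. Globin-rich barcodes of tdT- collection 1 were 54.6% embryonic (52.1% to 57.1%) and its other barcodes 52.0% (48.7% to 55.4%), and in tdT- collection 2 the values were 58.3% (50.5% to 65.9%) and 44.4% (42.4% to 46.4%).

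Single globin-rich barcodes mixed embryonic and adult chains. In tdT- collection 1, 27 barcodes had at least 20 globin UMIs, and their embryonic share ran from 34.9% to 75% with a median of 50%. All 27 held *Hba-a1*, *Hbb-y* and *Hba-x* and 26 held an adult beta gene. The barcode with the most globin had 226 UMIs, of which 142 were *Hbb-y*, 35 *Hba-a1*, 21 *Hba-x*, 15 *Hba-a2*, 9 *Hbb-bt* and 4 *Hbb-bs* (72.1% embryonic, 65.8% to 77.9%). The next, with 140 globin UMIs among 3303, was 48.6% embryonic (40.0% to 57.2%), and the highest of tdT- collection 2, with 131 among 2246, was 54.2% (45.3% to 62.9%).

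Pan-Cart-p21 MOE and control cells were told apart by sex within each library, and no globin gene was called between them in deep barcodes. In tdT- collection 1 the Pan-Cart-p21 MOE (male) barcodes held 42 globin UMIs, 16.3 CPM (11.8 to 22.0), and the control (female) barcodes 255, 45.4 CPM (40.0 to 51.4). In tdT- collection 2 the Pan-Cart-p21 MOE (female) barcodes held 401, 19.5 CPM (17.6 to 21.5), and the control (male) barcodes 99, 14.2 CPM (11.6 to 17.3). The ratio was 0.359 (0.253 to 0.499) in the first and 1.37 (1.10 to 1.73) in the second. The estimates thus lay on opposite sides of 1. These intervals do not cover the spread of globin UMIs between barcodes, so the direction in tdT- collection 2 is uncertain. In the tdT+ libraries Pan-Cart-p21 MOE barcodes held 1 and 6 globin UMIs and control barcodes 0 and 0. A globin UMI was seen in 31.1% of Pan-Cart-p21 MOE and 36.3% of control barcodes in tdT- collection 1 and in 31.3% and 30.2% in tdT- collection 2. Without the single globin-rich barcode among them the ratio in tdT- collection 1 was 0.442 (0.309 to 0.618).

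**Figure D4:**
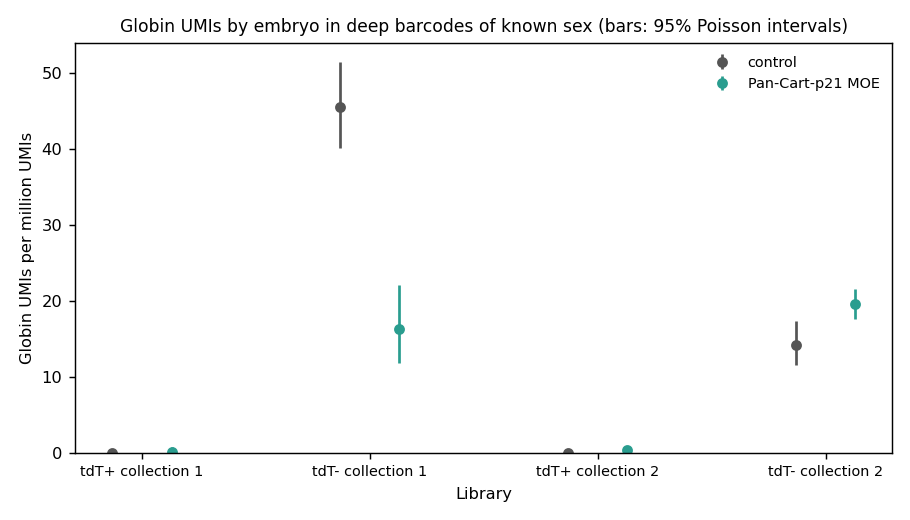
Globin UMIs in CPM in deep barcodes assigned by sex to control or Pan-Cart-p21 MOE embryos, in each library, with 95% Poisson intervals. The control value is the higher one in tdT- collection 1 (45.4 against 16.3) and the lower one in tdT- collection 2 (14.2 against 19.5), and the tdT+ values are near 0.

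By edgeR over 8 sums with sorted fraction as a term, 4 members could be tested and 0 were called, 0 had an unadjusted p under 0.05 and DESeq2 called 0, where 4 of 15116 genes were called (0.0265%), and 0 of all genes with library as a replicate block. The log2 differences, Pan-Cart-p21 MOE minus control, were -0.63 ± 0.60 for *Hba-a1*, -0.43 ± 0.63 for *Hba-a2*, -0.75 ± 0.48 for *Hbb-y* and 0.15 ± 0.47 for *Hbb-bs*, with adjusted p from 0.872 to 1.00 by edgeR. Without the control cells of tdT- collection 1 the values of the first 3 became 0.41, 0.76 and 0.35. Sex and embryo cannot be told apart from genotype within a library, and by the study's methods all Pan-Cart-p21 MOE cells of collection 2 came from 1 embryo.

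The globin clusters hold 3 further genes in the features. *Hbb-bh2*, a beta-like gene, had 0 UMIs in each library. The theta-like gene *Hbq1a* had 2 and 1 UMIs in the tdT+ and 0 and 1 in the tdT- libraries, and *Hbq1b* had 0 and 2 in the tdT+ and 3 and 1 in the tdT- libraries. Neither stood above 3 UMIs in any library, and the fractions overlapped for both.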

How the data were processed

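Hindlimb cells were measured by 10x 3′ single-cell RNA-seq in 4 libraries. The authors deposited integer UMI counts per gene and barcode, made with Cell Ranger 7.2.0 against GRCm38 with transgenes added. Their later steps (removal of ambient RNA, of doublets and of low-count cells) were not seen in these counts, and no doublets were removed here. A UMI marks the 3′ end of 1 molecule, so levels were not divided by length.

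Libraries were grouped by the sorted fraction in the labels, and collection numbers, which the labels share between fractions, paired them (correlation of the collection differences of the 2 fractions over genes 0.136 in deep and -0.0831 in shallow barcodes). Condition within a library came from sex, as the study's methods give it (2 or more UMIs of sex-specific genes, at least 80% on 1 side), since the labels do not assign it. Counts were summed per library and barcode class and tested with edgeR 4.0.16 (TMM, filterByExpr, quasi-likelihood, Benjamini-Hochberg, adjusted p under 0.05), with DESeq2 1.42.0 as an alternative (R 4.3.3, limma 3.58.1). Shares have exact Clopper-Pearson and levels exact Poisson intervals at 95% (scipy 1.17.1, numpy 2.4.6, pandas 2.3.3, Python 3.11.15), and figures were drawn with matplotlib 3.10.9. Depths of 11945062 to 39435830 UMIs per library set a floor of 3 counts for a gene at 0. The fits were tested on simulated counts. Named genes were the 7 members, other genes of the globin clusters and the erythroid list, and the planned fit on barcodes with at least 20% globin was not run. The members and lists were chosen with earlier results of these data known.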

Additional observations from a re-analysis of the deposited data

Results flagged for a closer look

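The ratio of globin CPM (UMIs per 1000000 UMIs) in Pan-Cart-p21 MOE over control barcodes, in deep barcodes of known sex, pointed in opposite directions in the 2 tdT- libraries. It was 0.359 in tdT- collection 1 and 1.37 in tdT- collection 2, and the difference between the libraries was not tested. Female over male, the ratio was 2.79 (2.00 to 3.96) and 1.37 (1.10 to 1.73), above 1 in both. These intervals cover counting error only, not the spread between barcodes. Among deep barcodes under 1% globin, the variance of globin UMIs over their mean was 2.81 in tdT- collection 1 and 3.03 in tdT- collection 2. In tdT- collection 2 a globin UMI was seen in 31.3% of Pan-Cart-p21 MOE and 30.2% of control barcodes. The direction in that library is therefore uncertain. Sex, embryo and genotype cannot be told apart within a library.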

How the results depend on the processing

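Of 73 alternative values of the main results, 71 kept the sign of a difference or a similar count of members called. The p-values of these alternatives were not compared with a threshold. The embryonic share, shallow minus deep, turned to -13.7 percentage points with beta-like genes alone (3 libraries), and ran from -0.910 (without tdT+ collection 1) to 11.1 when 1 library was left out; tdT+ classes hold 2 to 9 globin UMIs. Of 253 alternative values for single members, 238 kept direction and call, 7 gained the call (each *Hba-x* between fractions in deep barcodes), 2 lost it (*Hbb-bt* in deep barcodes with the split at 2000 UMIs, adjusted p = 0.0590 by edgeR, and *Hba-x* in shallow barcodes with the split at 5000, adjusted p = 0.105) and 6 changed sign, each between Pan-Cart-p21 MOE and control cells, where no member was called. With 1 of the 8 sums left out, those log2 differences ran from -1.41 to 0.41 (*Hba-a1*), -0.84 to 0.76 (*Hba-a2*), -1.34 to 0.35 (*Hbb-y*) and -0.078 to 0.57 (*Hbb-bs*), and that of *Hbb-bs* was -0.070 with the split at 2000.

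Counts over all genes moved more than those of the members. Between fractions in deep barcodes 255 genes were called, against 567 by DESeq2, 1737 without a filter, 895 with the replicate block and 127 to 631 with 1 library left out. In shallow barcodes 64 were called, against 265 without a filter, 216 and 18 with the splits at 2000 and 5000, 129 without globin-rich barcodes (an alternative chosen after seeing the data, as were those on the tdT- libraries alone) and 138 to 379 with 1 library left out. Between conditions 4 were called, against 43 by DESeq2, 443 without a filter, 0 with the replicate block and 0 to 4 with 1 sum left out. The replicate block gave -36.6 percentage points for the embryonic share between fractions; of the calls on members with and without it, that of *Hba-x* between fractions in deep barcodes was gained (adjusted p = 0.000657 by edgeR). Fits on barcodes with at least 20%, 10% or 50% globin, and the embryonic share of such barcodes between fractions, were not run, since 1 library held the barcodes of at least 20% (1) and 10% (2) and none reached 50%. The small tdT+ counts limit each statement on the globin mix of that fraction.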
